A study of Mus musculus with 6 samples.

Results

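Oxidative phosphorylation (OXPHOS) is the process by which mitochondria make most of a cell's ATP. The genes described here are those named as subunits of its 5 complexes, with the few assembly factors that carry the same kind of name. They were chosen by name alone: gene symbols of the Nduf, Sdh, Uqcr, Cox4 to Cox8 and Atp5 families and the protein-coding genes of the mitochondrial genome, with 4 names ending in -ps, a suffix used for pseudogenes, left out. The rule took 104 of the 47643 genes listed, 91 in the nuclear genome and 13 in the mitochondrial genome. RNA was sequenced from ependymal cells, the ciliated cells that line the brain ventricles, taken from the adult mouse ventricular-subventricular zone and sorted for GFP. All animals had been given tamoxifen 2 days before the sort, which by the design text switched on GFP by recombination in ependymal cells of both groups. The conditional knockout (CKO) group also lost Ccn1, the gene of a secreted matrix protein, in those cells, and the genotype of the control (CTR) group is labelled no further than as the control. Each group had 3 libraries. The sources used here do not name the Cre driver, the strain or the age in weeks. The labels describe the RNA as cytoplasmic and do not say that the libraries came from separate animals, so every p-value measures the spread between these libraries only.

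Complex I (NADH dehydrogenase) and complex II (succinate dehydrogenase) pass electrons to ubiquinone, complex III passes them to cytochrome c and complex IV to oxygen. Complexes I, III and IV pump protons as they do so, and complex V, the ATP synthase, makes ATP as the protons flow back. All but complex II contain proteins made inside the mitochondrion from its own genome, so the complexes need transcripts of both genomes. Ependymal cells beat their motile cilia continuously, a process driven by dynein motors that use ATP.

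The libraries held between 13401499 and 15689579 estimated counts. Ccn1, listed under its older symbol Cyr61, stood at 18.7, 11.6 and 23.7 TPM (a transcript level corrected for transcript length and library size) in CKO libraries 1 to 3 and at 63.6, 98.7 and 93.5 TPM in CTR libraries 1 to 3. The groups did not overlap, and the mean was 4.74-fold higher in the control (log2 difference −2.22, SE 0.38, unadjusted p = 0.000415 and adjusted p = 1 in edgeR's quasi-likelihood test). The 8 ependymal markers summed to between 42821 and 45658 TPM per library. Nnat led them with a mean of 21170 TPM, whereas Foxj1 averaged 13.9 TPM and stood at 3.26 TPM in CTR 1. The sum is thus weighted to its highest genes. Markers of astrocytes or stem cells summed to 1262 to 2507 TPM, and those of mural cells to 323 to 522 TPM, mostly Acta2. Of the other mural markers, Tagln averaged 116 TPM, whereas Pdgfrb and Rgs5 averaged only 0.35 and 0.004 TPM. Markers of choroid plexus summed to 301 to 906 TPM. Among them Folr1 stood at 297 to 558 TPM, and Ttr ran from 0.25 TPM in CKO 3 to 520 TPM in CKO 2. Kcne2 was at 0 in all 6 libraries. The 5 endothelial markers were at or near 0 in every library. Neuroblast markers summed to 4.8 to 8.7 TPM in the CKO and 9.3 to 27.3 TPM in the CTR, and their part in the values below was not tested.

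OXPHOS transcripts took 15.8%, 15.0% and 16.97% of all TPM in CKO 1 to 3 and 17.5%, 15.9% and 14.9% in CTR 1 to 3. The CTR libraries held both the highest and the lowest value, so the groups overlapped. By group the share was 15.9 ± 0.98% in the CKO and 16.1 ± 1.31% in the CTR (SD, n = 3 each). Most of it came from the 13 mitochondrial genes, which took 12.1%, 11.4% and 13.3% of all TPM in the CKO and 13.1%, 12.4% and 11.4% in the CTR. The 91 nuclear members took 3.70%, 3.602% and 3.66% in the CKO and 4.41%, 3.45% and 3.54% in the CTR. The 3 CKO values lay within 0.1 percentage points of each other, while CTR 1 stood above the other 5 libraries. In bulk RNA of this kind, fewer cells of a type and less RNA per cell cannot be told apart.

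The mitochondrial genome supplied 76.6%, 76.0% and 78.4% of OXPHOS TPM in the CKO and 74.8%, 78.3% and 76.3% in the CTR, a mean of 77.0 ± 1.26% against 76.4 ± 1.73%. The difference of 0.56 percentage points was smaller than the spread in either group. In estimated counts, which are not corrected for length, the shares were 78.4 ± 1.44% and 78.0 ± 1.01%. Mitochondrial transcripts outweighed nuclear ones by 2.97-fold in CTR 1, the lowest library, and by 3.63-fold in CKO 3, the highest.

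**Figure D1:**
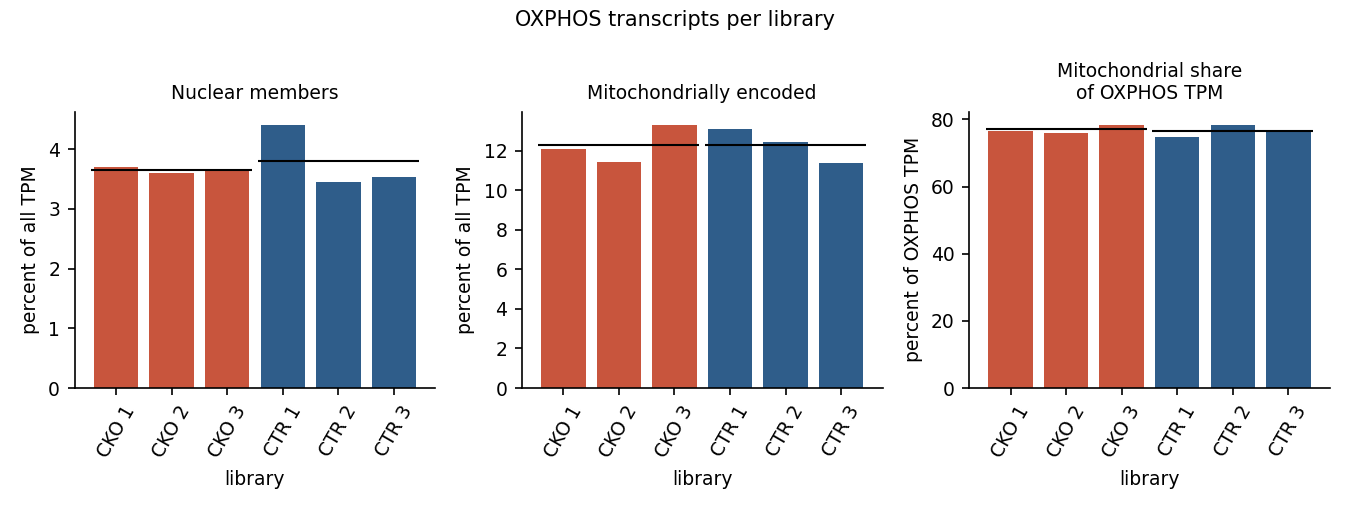
Percent of all TPM taken by the nuclear members (left) and the mitochondrially encoded members (middle), and the mitochondrial percent of OXPHOS TPM (right), in each CKO and CTR library; horizontal lines are group means, n = 3 each. CTR 1 is the highest bar for the nuclear members at 4.41%, and the groups overlap in all 3 panels.

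The mitochondrial part differed widely between the complexes that use both genomes. It made up 37.8% to 43.8% of the TPM of complex I, 72.2% to 77.1% of complex III, 85.2% to 87.2% of complex IV and 86.7% to 90.4% of complex V over the 6 libraries. These 4 ranges in TPM did not overlap except between complexes IV and V. In estimated counts the mitochondrial part was 49.5% to 54.4% for complex I and 81.8% to 85.6% for complex III. It was 91.7% to 92.8% for complex IV and 81.8% to 86.2% for complex V. The order of complexes III, IV and V thus depended on the unit. In each complex the CKO and CTR values overlapped.

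Levels of the 13 mitochondrial mRNAs spanned more than 2 orders of magnitude. The mRNA of mt-Atp6, which encodes the proton channel subunit a of the ATP synthase, was the most abundant transcript of all 11574 tested genes. It stood at 54604, 50967 and 64857 TPM in the CKO and 54285, 52321 and 50328 TPM in the CTR. CKO 3 was the highest library and the other 5 lay close together, with the groups overlapping. The mRNAs of the complex IV core subunits and of cytochrome b came next, with mt-Co3 at 19906 ± 2396 TPM (SD, n = 6 libraries), mt-Cytb at 13555 ± 693, mt-Co1 at 12798 ± 688 and mt-Co2 at 8872 ± 1124. Only mt-Cytb and mt-Co1 overlapped among these neighbours, with mt-Cytb higher in 5 of 6 libraries. The complex I subunits were lower and led by mt-Nd4 at 4196 ± 408 TPM, followed by mt-Nd1 at 1869.7 ± 243 and mt-Nd2 at 1578 ± 168. The lowest 4 were mt-Nd5 at 1020 ± 135 TPM, mt-Nd4l at 941 ± 211, mt-Nd6 at 887 ± 156 and mt-Nd3 at 529.9 ± 157, each overlapping the next in the order. mt-Atp8, a small subunit of the ATP synthase, stood between mt-Nd4 and mt-Nd1 at 2092 ± 460 TPM.

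Some of these genes share bases, so reads may be divided between them by estimate. In GENCODE M21 on GRCm38, mt-Atp8 lies at chrM:7766-7969 and mt-Atp6 at chrM:7927-8607 on the same strand, and both are known to be read from 1 mRNA. Yet mt-Atp6 was 26.7 ± 3.86 times as high as mt-Atp8 in TPM (SD, n = 6), with the lowest ratio of 22.2 in CKO 3 and the highest of 33.9 in CKO 2. The same holds for mt-Nd4l at chrM:9877-10173 and mt-Nd4 at chrM:10167-11544, whose TPM ratio was 4.61 ± 0.92. The part of read assignment in these ratios was not tested. mt-Nd6, at chrM:13552-14070, is the only member on the opposite strand of the mitochondrial genome and overlaps mt-Nd5 at chrM:11742-13565. The files do not say whether strand was used in counting, so the reads of this pair cannot be told apart where they overlap.

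Within the mitochondrial members, the share of mt-Atp6 was 45.2%, 44.7% and 48.7% of TPM in the CKO and 41.4%, 42.2% and 44.2% in the CTR. All 3 CKO libraries lay above all 3 CTR libraries, by a mean of 3.595 percentage points, although the nearest CKO and CTR values were 44.7% and 44.2%. The groups were also apart in estimated counts, at 31.1%, 30.1% and 34.0% against 28.1%, 28.4% and 29.9%. No test was made of this share. The fitted level of mt-Atp6 itself differed by log2 0.11 (SE 0.13, unadjusted p = 0.428 in edgeR), with a range from −0.023 without CKO 3 to 0.22 without CTR 1.

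**Figure D2:**
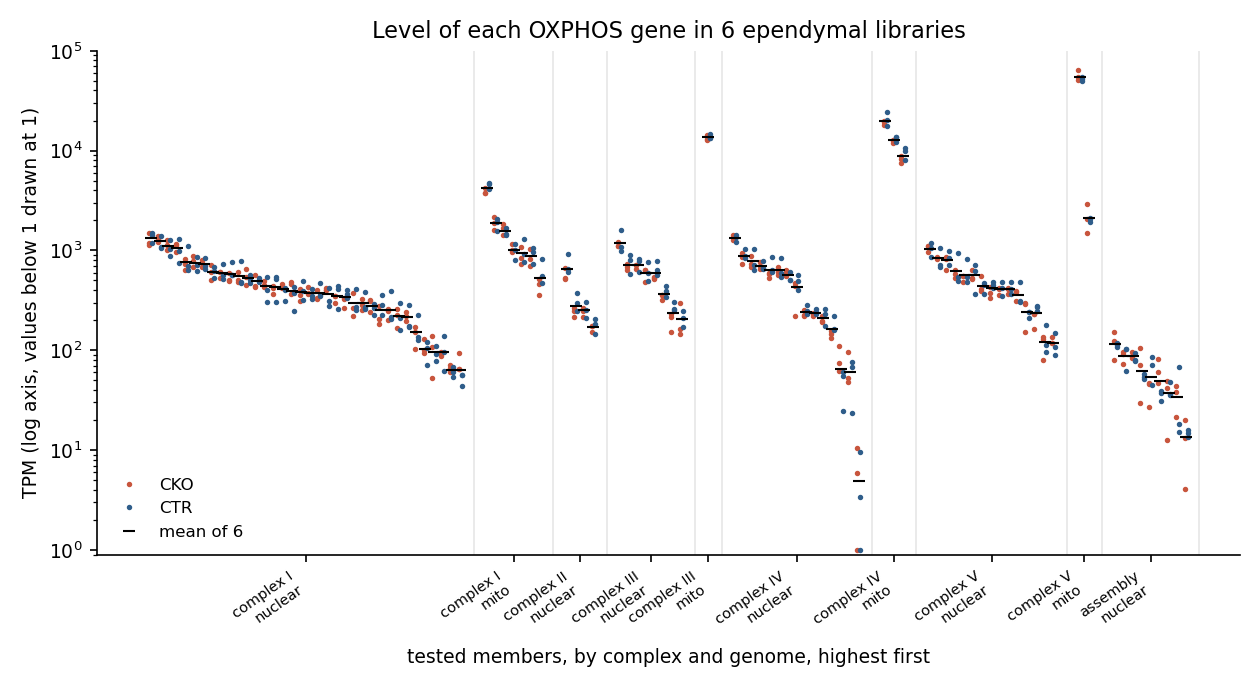
TPM on a log axis for each of the 100 tested members, grouped by complex and by genome and sorted from high to low; dots are the 3 CKO and 3 CTR libraries, dashes the mean of 6. The mitochondrial mRNAs of complexes III, IV and V, led by mt-Atp6 at 54560 TPM, lie above every nuclear subunit in their mean, the highest of which is Cox4i1 at 1345 TPM.

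Most nuclear members were abundant, with tested members running from Cox4i2 at 4.89 TPM to Cox4i1 at 1345 TPM. Of the 91, 87 passed the filter on low counts, and 82 of these 87 stood at 50 TPM or more, against 2586 of all 11574 tested genes. Their median was 375 TPM, against 11.1 TPM for all tested genes, and 51 of the 87 lay among the top 5% of tested genes (579 genes). The 4 that did not pass were Cox6a2, Cox8b and Cox8c, at 0 counts in all libraries, and Cox7b2, with 15 counts in CTR 3 alone. The median TPM of the tested nuclear subunits, as a mean over the 6 libraries, was 584 for complex III, 433 for complex IV, 428 for complex V, 384 for complex I and 263 for complex II. Over all 19 nuclear members of complex IV, the 4 untested ones included, the median was 235 TPM, below that of complex II. Among tested subunits, complex III was above each of the others in 6 of 6 libraries, and complex I was above complex II in 6 of 6. Complexes IV, V and I were not ordered beyond their spread: complex IV lay above complex V in 5 libraries, and complex I lay above each of them in 1.

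Among the nuclear subunits of complex I, accessory subunits led. Ndufa7 averaged 1321 TPM, Ndufa12 1240.2, Ndufb8 1099.8 and Ndufb9 1048, all small supernumerary proteins around the catalytic core. The 7 core subunits, which carry the flavin and the iron-sulfur clusters or sit next to them, had a median of 299.9 TPM against 405 for the 29 accessory subunits, as means over the 6 libraries. The accessory median was the higher in 5 of 6 libraries, and in CTR 2 the core median was higher, at 357 against 352 TPM. Of the core subunits Ndufv2 was the highest at 612 TPM and Ndufs1 the lowest at 63.4, a level close to that of the accessory subunit Ndufa11 at 63.5. The highest and lowest nuclear members of complex I thus differed by 20.8-fold, although their proteins are known to join in a complex with a fixed number of copies of each.

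In complex II the iron-sulfur subunit Sdhb led with 648 TPM, followed by the membrane anchors Sdhd at 275 and Sdhc at 251 and the flavoprotein Sdha at 173. In complex III, Uqcr11, a small accessory subunit, stood at 1185 TPM, Uqcr10 at 721 and the core protein Uqcrc1 at 714, while the other core protein, Uqcrc2, was lowest at 205. In complex IV the leading genes were Cox4i1 at 1345 TPM, Cox8a at 882 and Cox6c at 780. In complex V the stalk subunits Atp5h at 1044 TPM, Atp5j at 832 and Atp5o at 809 stood above the catalytic subunit Atp5b at 408 and its partner Atp5a1 at 239.8. The assembly factors and related genes were far lower, from Ndufaf4 at 13.6 TPM to Ndufaf3 at 116.

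Several subunits have alternative genes that are known to be used in different tissues, and the ependymal libraries showed which were present. Cox4i1 made up 99.2% to 100% of Cox4 TPM, and Cox4i2, known from lung, had 0 counts in CKO 3 and CTR 1 and at most 59 counts in any library. The muscle forms Cox6a2 and Cox8b and the testis form Cox8c had 0 counts in all 6, which allows at most 3 counts, or 0.191 to 0.224 CPM (counts scaled to library size) depending on the library. Floors of this kind cover counting error only. Of the Cox7a group, Cox7a2 took 41.7% and the related Cox7a2l, a supercomplex factor, 46.5% of the TPM on average. Cox7a1, known from heart and muscle, took 9.5%, 11.1% and 18.6% in the CKO and 13.5%, 13.4% and 4.8% in the CTR, with the groups overlapping. The 3 genes Atp5g1, Atp5g2 and Atp5g3, which are known to encode the same mature c subunit of the ATP synthase ring, took 42.1%, 12.4% and 45.5% of their TPM on average.

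Cox6b2, known as the testis form of Cox6b, was detected in every library. It stood at 111, 62.2 and 75.2 TPM in the CKO and 24.5, 55.1 and 60.1 TPM in the CTR. It made up 15.9%, 10.5% and 11.3% of Cox6b TPM in the CKO and 2.74%, 8.26% and 8.60% in the CTR, the rest being Cox6b1. CKO 1 was the highest library and CTR 1 the lowest, and the groups did not overlap. The fitted difference was 0.84 on the log2 scale with an SE of 1.05 (unadjusted p = 0.446, adjusted p = 1 in edgeR), so it was smaller than its error, and it was 0.56 without CTR 1. Cox6b2 lies at chr7:4751792-4753094 in GENCODE M21 on GRCm38.

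**Figure D3:**
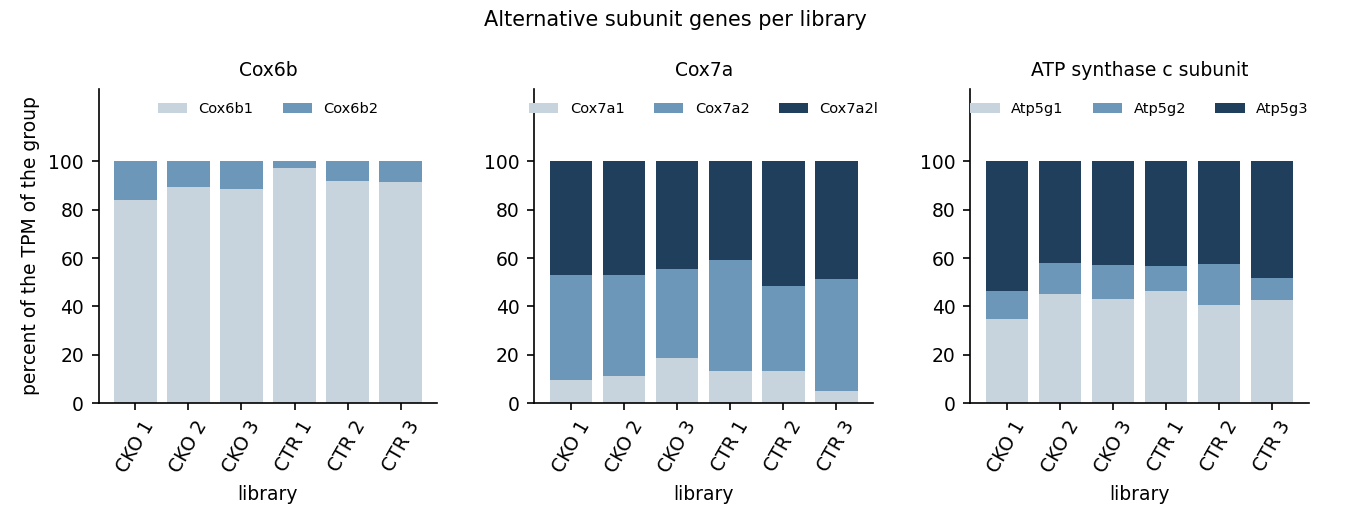
Percent of the TPM of each group of alternative genes taken by each gene, for Cox6b, Cox7a and the ATP synthase c subunit, in the 3 CKO and 3 CTR libraries. Cox6b2 runs from 2.74% in CTR 1 to 15.9% in CKO 1, and Atp5g2 takes the smallest part of the c subunit TPM in every library.

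The promoters of many nuclear members hold motifs of factors known to act on respiratory genes. RefSeq windows from 250 bases before to 50 after the start (GRCm38.p6) were found for 76 of the 91 nuclear members, 3 of them through a synonym, with 82 windows in all. GCGCANGCG, the core of the motif read by NRF1, was found on either strand in 28.0% of these windows, against 6.25% of all 32851 windows and 14.2% of the 10347 windows of protein-coding genes tested here. CCGGAAG, the ETS motif read by GABPA, was found in 20.7%, against 8.86% and 18.0%. On the gene's own strand alone it was in 7.32% of the members' windows, against 4.77% and 10.2%, so the order against tested genes depended on the strands searched. AAGATGGC, a motif of YY1, was found in 14.6%, against 2.75% and 4.71%. At least 1 of the 3 was in 53.7% of the members' windows and in 32.1% of those of tested protein-coding genes. By complex, a motif was found in 11 of 17 windows for complex V and in 3 of 14 for complex IV. These are matches of letters, not sites shown to be bound.

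Within the stretch from 150 bases before to 30 after the start, 6 members held 2 kinds of motif. The most abundant of them in complexes II to V are shown with Atp5j, which held the YY1 motif in the window shown, to let the arrangement be read. The other window of Atp5j, at chr16:84835576-84835875, held 0 kinds of motif. Each is written 5′ to 3′ on the strand of its gene, with motif letters of either strand in capitals, from the minus strand of GRCm38.p6 at chr9:50603820-50603999 for Sdhd, chr10:80406792-80406971 for Uqcr11, chr5:115348929-115349108 for Cox6a1, chr11:115419890-115420069 for Atp5h and chr16:84834947-84835126 for Atp5j.
Sdhd: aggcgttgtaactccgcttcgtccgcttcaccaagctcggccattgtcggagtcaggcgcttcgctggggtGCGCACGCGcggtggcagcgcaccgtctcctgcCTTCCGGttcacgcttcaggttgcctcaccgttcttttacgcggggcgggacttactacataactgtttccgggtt
Uqcr11: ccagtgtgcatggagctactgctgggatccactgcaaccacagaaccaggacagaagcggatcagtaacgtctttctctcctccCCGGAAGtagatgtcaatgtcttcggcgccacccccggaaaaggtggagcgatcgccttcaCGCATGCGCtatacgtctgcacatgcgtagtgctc
Cox6a1: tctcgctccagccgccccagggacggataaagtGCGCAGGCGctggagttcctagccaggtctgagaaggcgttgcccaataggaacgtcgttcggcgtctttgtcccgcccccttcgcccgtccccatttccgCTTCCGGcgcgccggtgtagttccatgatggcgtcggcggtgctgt
Atp5h: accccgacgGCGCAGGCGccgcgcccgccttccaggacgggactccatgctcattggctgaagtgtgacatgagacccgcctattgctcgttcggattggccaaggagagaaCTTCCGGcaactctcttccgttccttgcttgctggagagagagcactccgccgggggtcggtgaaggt
Atp5j: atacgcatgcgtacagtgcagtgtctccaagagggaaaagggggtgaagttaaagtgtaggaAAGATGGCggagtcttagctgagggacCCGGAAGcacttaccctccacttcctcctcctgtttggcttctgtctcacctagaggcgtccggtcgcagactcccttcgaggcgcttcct

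The ETS motif stands in all 5, on the gene's own strand in Uqcr11 and Atp5j and on the other in Sdhd, Cox6a1 and Atp5h, where it reads CTTCCGG. Uqcr11 and Atp5h were also the leading genes of complexes III and V, at 1185 and 1044 TPM, whereas Sdhd stood at 275. The stretches shown were chosen for holding 2 kinds of motif and for level, so both points follow in part from the choice. Ndufa12, at 1240.2 TPM, held none of the 3 motifs in its window.

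Of the factors themselves, Nrf1 had 16.4, 17.6 and 0.214 TPM in the CKO and 2.69, 25.6 and 7.65 TPM in the CTR. Yy1 averaged 9.85 TPM and Gabpa 5.40, and Ppargc1a, a coactivator of mitochondrial biogenesis, 3.98. Each of these 4 genes varied several-fold between libraries of 1 group, and none passed the test. Of the 6 tested genes in the list of nuclear regulators, 3 were higher and 3 lower in the CKO.

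Between genotypes, no OXPHOS member passed the test. Of the 100 members tested, 0 were called at an adjusted p under 0.05 by edgeR's quasi-likelihood test, as were 0% of all 11574 tested genes. At an unadjusted p under 0.05 there were also 0 members, against 2.75% of all tested genes (1.43% higher and 1.31% lower in the CKO). DESeq2 called 1.63% of the 12133 genes it gave an adjusted p, and 0 members, the smallest adjusted p among members being 0.499. The members' differences were small beside their errors. The median size of the log2 difference was 0.13 against 0.47 for all tested genes, and the median SE was 0.25 against 1.08, although all tested genes are mostly of lower level, with a median of 11.1 TPM.

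The direction of the small differences depended on library CTR 1. With all libraries, 36 members stood higher in the CKO and 64 stood lower. The median of their log2 differences was −0.08, against 0.0044 for all tested genes. CTR 1 held the highest level of 53 of the 100 members, and of 1878 of the 11574 tested genes. Without CTR 1, the nuclear members had a median of 0.14, with 64 of 87 higher, and the mitochondrial members one of 0.07, with 9 of 13 higher. All tested genes then had a median of 0.04. Tested genes at 50 TPM or more with transcripts under 750 bases had one of 0.14, with 133 of 189 higher. In all, 41 of the 100 members turned direction without CTR 1, against 11 to 17 without any other library. No direction of the set as a whole can therefore be given.

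**Figure D4:**
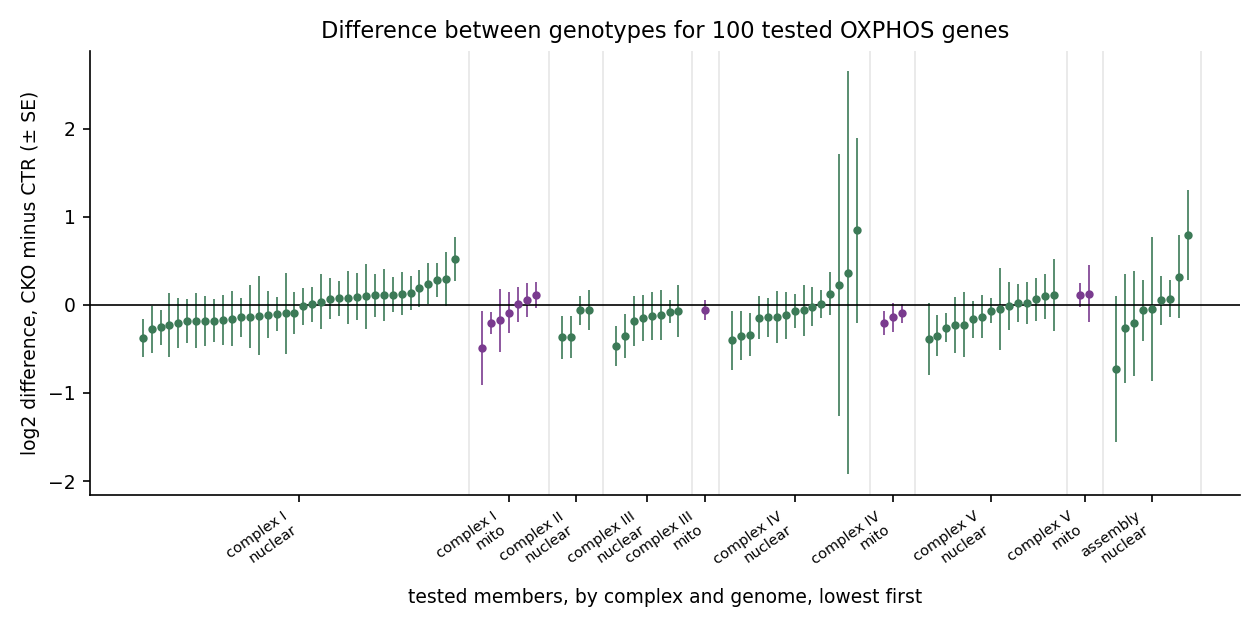
Log2 difference, CKO minus CTR, for each of the 100 tested members with its SE as a bar, by complex and genome (green nuclear, purple mitochondrial). Most bars cross 0 or end near it, and the widest belong to members of low count such as Cox4i2 and Cox7a1.

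By complex, 17 of the 36 nuclear members of complex I were higher and 19 lower in the CKO. The 4 of complex II and the 8 of complex III were all lower, with medians of −0.21 and −0.14. Complex IV had 5 higher and 10 lower, and complex V had the same counts. None of these passed the test. Without CTR 1, 1 of 4 members of complex II and 5 of 8 of complex III were higher, and 30 of 36 of complex I. As a share of nuclear OXPHOS TPM, complex II took 3.51%, 3.37% and 3.18% in the CKO and 3.96%, 3.62% and 3.98% in the CTR, so the CKO libraries lay below. Complex I took 46.0%, 44.1% and 45.9% in the CKO and 43.8%, 43.8% and 43.5% in the CTR, so the CKO libraries lay above. The nearest values of the groups were 3.51% and 3.62% for complex II and 44.1% and 43.8% for complex I, and no test was made of these shares.

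Few members had groups apart from each other. All 3 CKO libraries lay above all 3 CTR libraries in TMM-scaled CPM for 3 members, Ndufs1, Ndufaf6 and Cox6b2, which is 3% of the members tested against 4.99% of all tested genes. All 3 lay below for 5 members, Uqcrfs1, Uqcrh, Atp5d, Cox7b and Ndufaf2, which is 5% against 4.62%. Both shares were near or under that of all genes. Ndufaf2, under 20 CPM, lies outside the rule for named genes and was chosen after its values were seen.

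The smallest p of all members belonged to Ndufs1, the largest core subunit of complex I, which holds iron-sulfur clusters (chr1:63143596-63176833). It stood at 93.5, 64.6 and 64.8 TPM in the CKO and 44.0, 56.7 and 56.6 TPM in the CTR. CKO 1 was well above the rest and CTR 1 the lowest. The log2 difference was 0.52 (SE 0.25, unadjusted p = 0.073, adjusted p = 1 in edgeR), and 0.31 without CKO 1. Next was Uqcrfs1, the Rieske iron-sulfur protein of complex III (chr13:30540308-30545362), at 215, 229 and 154 TPM in the CKO and 305, 252 and 260 TPM in the CTR. The groups did not overlap, and CKO 3 was the lowest library. Its log2 difference was −0.47 (SE 0.23, unadjusted p = 0.074, adjusted p = 1 in edgeR), and −0.30 without CTR 1.

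mt-Nd4 stood at 3767, 3749 and 4195 TPM in the CKO and 4683, 4650 and 4132 TPM in the CTR, with only CKO 3 and CTR 3 crossing. Its log2 difference was −0.21 (SE 0.13) with all libraries and −0.099 without CTR 1. Atp5f1, the b subunit of the ATP synthase stalk, stood at 337, 373 and 426 TPM in the CKO and 451, 421 and 486 TPM in the CTR. Its groups overlapped, and the log2 difference was −0.26 (SE 0.17). Ndufaf6, an assembly factor of complex I, stood at 47.1, 81.1 and 60.4 TPM in the CKO and 39.2, 31.3 and 37.2 TPM in the CTR. Its groups were apart, and the log2 difference of 0.79 had an SE of 0.51.

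Uqcrh, the hinge protein that meets cytochrome c at complex III, stood at 512, 548 and 527 TPM in the CKO and 788, 571 and 637 TPM in the CTR. The difference came largely from CTR 1: it was −0.36 with all libraries and −0.13 without that library. Atp5d, the delta subunit of the F1 part of the ATP synthase, stood at 230, 234 and 162 TPM against 246, 276 and 272 TPM, a log2 difference of −0.35 (SE 0.23), and of −0.21 without CKO 3. Cox7b, a small subunit of complex IV, stood at 144, 155 and 132 TPM in the CKO and 219, 161 and 162 TPM in the CTR. It moved from −0.35 to −0.10 without CTR 1. Ndufaf2, an assembly factor of complex I, stood at 46.9, 26.8 and 45.9 TPM in the CKO and 45.4, 86.4 and 70.4 TPM in the CTR, so its groups crossed in TPM though not in CPM. Its log2 difference of −0.73 had an SE of 0.83.

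Sdhb and Sdhd had the largest differences in complex II. Sdhb stood at 662, 523 and 524 TPM in the CKO and 919, 603 and 655 TPM in the CTR. Its log2 difference was −0.37 (SE 0.24) with all libraries and −0.07 without CTR 1. Sdhd stood at 217, 265 and 247 TPM against 377, 250 and 296 TPM, with a log2 difference of −0.36 (SE 0.24) that became −0.10 without CTR 1. Of the mitochondrial members mt-Nd3 had the largest difference, −0.49 (SE 0.42), which became −0.13 without CTR 1. Its levels of 519, 357 and 456 TPM against 821, 549 and 477 TPM overlapped.

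CTR 1 stood apart mainly in short transcripts. For nuclear members with transcripts under 750 bases (31 genes), CTR 1 lay 0.37 above the median of the other 5 libraries on the log2 scale, for those from 750 up to 1500 bases (29 genes) 0.25 above, and for those of 1500 bases or more (22 genes) at −0.06. All tested genes at 50 TPM or more had 0.32, 0.07 and −0.17 in the same classes. The shift was therefore present in short transcripts of other genes too. Lengths are of the longest protein-coding transcript in GENCODE M21. The 39 of 82 tested cytosolic ribosomal protein genes that were highest in CTR 1 followed the members in this, and 51 of these 82 were lower in the CKO. With all libraries, the median log2 difference of nuclear members was −0.12, −0.10 and −0.07 in the 3 length classes, and without CTR 1 it was 0.19, 0.14 and 0.08. For all tested genes at 50 TPM or more it was −0.09, −0.004 and −0.003 with all libraries. Without CTR 1 it was 0.14, 0.12 and 0.02 for them, so short genes in general also turned higher in the CKO. CTR 1 also had the fewest genes with an estimated count of 1 or more, 12428 against 12989 to 14496 in the other 5 libraries. Its total was 15545476 estimated counts. The part of this in the shift was not tested.

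**Figure D5:**
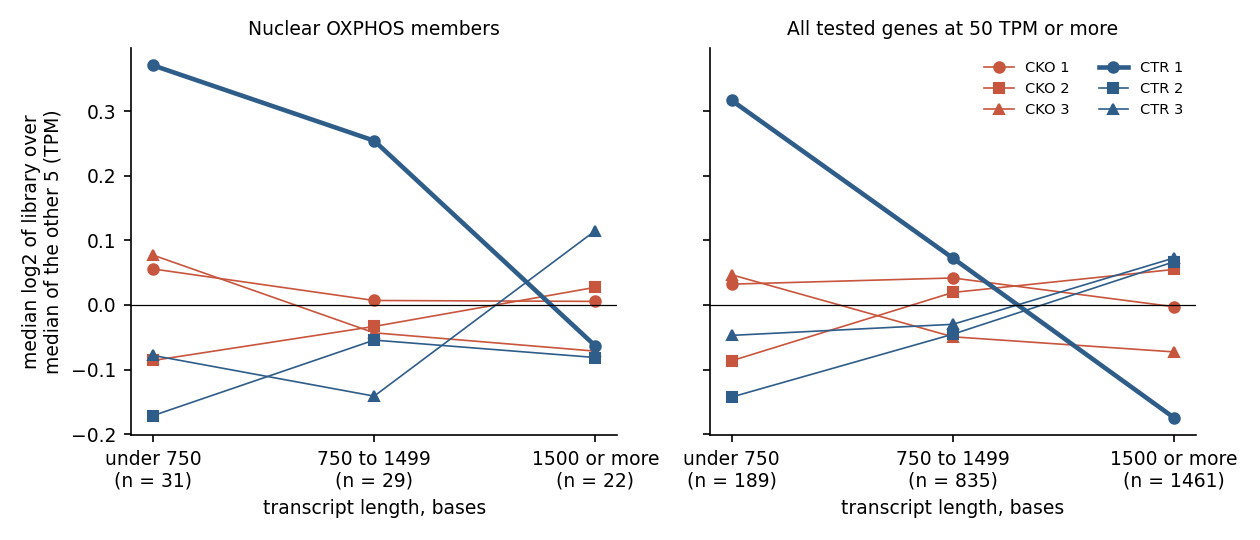
Median log2 ratio of each library's TPM to the median of the other 5, for nuclear OXPHOS members (left) and all tested genes at 50 TPM or more (right), by transcript length. The thick line of CTR 1 runs from 0.37 to −0.06 in the members and from 0.32 to −0.17 in all genes, and the other libraries stay between −0.17 and 0.11.

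The members varied less between libraries than tested genes in general at 50 TPM or more. Over the 6 libraries the median coefficient of variation of TPM was 12.7% for the 13 mitochondrial members and 17.4% for the 82 nuclear members at 50 TPM or more. It was 19.1% for ribosomal protein genes and 24.0% for all 2586 tested genes above the same level. The sets were not matched for level. Of the 87 tested nuclear members, 68 lay among the top 10% of tested genes, as did all 13 mitochondrial members. Among the members at that level, the most even were mt-Cytb at 5.1% and Cox7a2l at 5.2%, and the least even were mt-Nd3 at 29.7% and Cox6b2 at 43.7%.

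Genes that serve the complexes without matching the name rule gave 0 calls in edgeR in each of the lists examined. Of 18 tested assembly factors of complex IV, 8 were higher and 10 lower in the CKO. Sco2, a copper chaperone, stood at 51.9, 35.8 and 36.3 TPM in the CKO and 22.2, 17.4 and 11.1 TPM in the CTR, with groups apart and a log2 difference of 1.26 (SE 0.74). Cox10, which takes part in making heme a, stood at 11.7, 21.3 and 2.60 TPM against 13.1, 27.0 and 31.3 TPM, with groups that overlapped. Of 8 tested assembly factors of complex I outside the name rule, 2 were higher and 6 lower. Timmdc1 among them stood at 19.3, 25.5 and 22.3 TPM against 9.57, 17.6 and 7.16 TPM, with groups apart and a log2 difference of 0.97 (SE 0.83).

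Of 13 assembly factors of complexes II, III and V, 6 were higher and 7 lower, and 1 had an unadjusted p under 0.05, a level that 2.75% of all tested genes reached. This was Atpaf1, a chaperone of the catalytic head of the ATP synthase, at 38.6, 19.7 and 17.01 TPM in the CKO and 35.02, 79.1 and 65.0 TPM in the CTR. CKO 1 and CTR 1 overlapped, and the log2 difference was −1.22 (SE 0.44, unadjusted p = 0.024, adjusted p = 1 in edgeR). Of 13 genes of mitochondrial transcription, RNA and DNA replication, 6 were higher and 7 lower. Tefm, an elongation factor of mitochondrial RNA polymerase, stood at 59.7, 45.7 and 48.5 TPM in the CKO and 15.1, 29.4 and 25.2 TPM in the CTR, with groups apart and a log2 difference of 1.16 (SE 0.53, unadjusted p = 0.058 in edgeR).

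Of 7 tested genes of adenine nucleotide and phosphate carriers, Vdac channels and Ucp2, taken as a single list, 4 were higher and 3 lower. Slc25a5, the leading ADP/ATP carrier, averaged 1463 TPM, above every nuclear OXPHOS member. Of 10 further subunits and electron carriers, 6 were higher and 4 lower. Their highest were Etfa, the alpha subunit of the electron transfer flavoprotein, at 1608 TPM and Atpif1, the inhibitor of the ATP synthase, at 985 TPM. Of 16 genes of the TCA cycle, which feeds complexes I and II, and of pyruvate dehydrogenase, 10 were higher and 6 lower. The smallest p-values there belonged to Idh3g, at 318, 291 and 302 TPM against 544, 405 and 313 TPM (log2 difference −0.49, SE 0.26, and −0.17 without CTR 1), and to Ogdh, with a difference of −0.53 (SE 0.28, and −0.34 without CTR 2). Both had groups that overlapped. Median log2 differences of these lists, the nuclear regulators included, lay between −0.16 and 0.11.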

How the data were processed

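Ependymal RNA from 3 CKO and 3 CTR libraries was analysed. Group and replicate number were taken from each sample's title. Per the submitters' processing notes, the tools were CASAVA 1.8, cutadapt 1.11 and kallisto 0.42.5, which divides ambiguous reads between transcripts by estimate. The authors' genome build and annotation were not given in the sources used here. Per the file headers, the deposited files hold an estimated count per gene, not normalized, and a TPM value per gene scaled by the authors to transcript length and library size. Estimated counts were rounded to whole numbers. Identifiers, without version number, were looked up in GENCODE M21 (GRCm38), and 99.12% were found.

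The test was that of edgeR 4.0.16 in R 4.3.3 after filterByExpr and TMM scaling (robust quasi-likelihood test, two-sided, genotype only), with Benjamini-Hochberg adjustment over all 11574 genes and calls at 0.05. Sums and shares over members were given without a test. Alternatives used DESeq2 1.42.0 (Wald test, and its size factors in edgeR), library totals, other filters, a newer edgeR method, limma 3.58.1 (voom, and log2 TPM with a pseudocount of 1 or 0.1), a block of replicate numbers, and leaving out each library. The fit was checked on simulated data.

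Genes named were Ccn1, all mitochondrial members, the 3 highest and the lowest tested nuclear subunit of each complex, alternative subunit genes, the 6 members of smallest p, members at 20 CPM or more whose groups did not overlap, the highest and lowest assembly factor, and from each further list the 2 highest and the 2 of smallest p. A part of these is given, with a few others for their role. A result that the rule would name is not reported here. The members, lists and rules were chosen with earlier results of these data known. Lists of 4 to 8 cell type markers were summed in TPM, and those of neurons, oligodendrocytes, microglia and red blood cells reached at most 11.6, 114, 20.8 and 185 TPM in any library.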

Additional observations from a re-analysis of the deposited data

How the results depend on the processing

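No alternative called an OXPHOS member. The number of all genes called was 0 in edgeR and limma under every setting and 198 with DESeq2's Wald test. Leaving out each library in turn gave 0 to 0 members and 0 to 0 genes called. The median log2 difference of nuclear members was −0.08, ran from −0.20 to 0.14 with a library left out, and was 0.14 without CTR 1. That of the mitochondrial members was −0.09 and ran from −0.14 to 0.07. The difference in the mitochondrial share of OXPHOS TPM was 0.56 percentage points and ran from −0.26 to 1.46, and that of the OXPHOS share of all TPM was −0.18 and ran from −0.77 to 0.53. mt-Atp6 ran from −0.023 to 0.22 on the log2 scale. The cause of these shifts was not tested. Over the settings that kept all libraries, at most 3 of 100 members turned direction. On the gene's strand alone, the ETS motif was found in 7.32% of member windows and in 10.2% of those of tested protein-coding genes.

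With the replicate number as a block, 0 members were called, the median of nuclear members was −0.07 and that of mitochondrial members −0.09. Same-numbered libraries deviated together with correlations of only 0.008, 0.0312 and 0.0152, so the replicate block rests on shared numbers only. Library totals alone moved the median of all genes by 0.01. With 3 libraries a group and a median SE of 0.25 for members, differences of the size seen here were not resolved.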

Other observations

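The mitochondrial genome also gives 2 ribosomal RNAs and 22 transfer RNAs, whose genes lie among the OXPHOS genes on either strand. mt-Rnr2 stood at 3674, 4125 and 2773 TPM in the CKO and 5608, 3251 and 3764 TPM in the CTR, and mt-Rnr1 at 776, 886 and 501 TPM against 1297, 585 and 678 TPM. Both overlapped between groups and were highest in CTR 1 and lowest in CKO 3. Together they took 0.327% to 0.690% of all TPM, less than mt-Cytb alone. Of the transfer RNAs, 10 were listed at 0 in all 6 libraries and 2 averaged above 100 TPM. mt-Ts1 stood at 124, 156 and 177 TPM in the CKO and 190, 113 and 142 TPM in the CTR. mt-Tp stood at 571, 275 and 370 TPM in the CKO and 719, 600 and 658 TPM in the CTR, so the CKO libraries lay below the CTR libraries, with 571 and 600 TPM as the nearest values. No test was made of these values. Whether strand was used in counting is not known, and the part of reads from neighbouring mitochondrial transcripts in the transfer RNA values was not tested.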
